A study of Mus musculus with 9 samples.

Results

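The course of gene expression within the heme diet was followed over 4 pools of colon RNA, taken on days 2, 4, 7 and 14 of heme feeding, of the 9 pools in the series. The members were chosen by diet alone, and days 7 and 14 (called late here) were set against days 2 and 4 (called early) for all genes. All mice were male C57BL/6J animals, an inbred laboratory strain, of 9 to 11 weeks. Every mouse first spent 1 week on a control diet with 40% of its energy as fat, and heme, where given, was mixed into that same diet at 0.2 µmol per g. Epithelial cells were scraped from the opened colon, and the RNA of 4 mice was pooled for each heme day and hybridised to 1 Affymetrix whole-transcript array. The control diet has pools of days 2, 4, 7 and 14 of its own, which serve as the background for time without heme, and a pool of day 0 that enters only the filter on low values. The control pool of day 2 held RNA of 3 mice. Values are log2 expression, so a difference of 1.0 is a factor of 2 on the linear scale. No diet and day has a second pool, so every p-value below measures the spread between pools of different days and not the spread between mice.

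Heme is the iron porphyrin of red meat, and in the colon its products reach the surface cells first. Those cells are renewed from dividing cells in the crypts, so a change at the surface can be followed by a change in the crypts. Cells meet oxidants and reactive aldehydes with Nrf2, a transcription factor that binds antioxidant response elements, and meet fatty acids with PPAR alpha, a nuclear receptor that turns on genes of fatty acid uptake and burning. Per its title, the series asked which effects of heme are immediate and which are delayed.

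Epithelial markers stood at a similar level in all pools, which does not show that RNA of other cells was absent. The 11 markers, among them Epcam, Cdh1 and Krt8, averaged 11.46, 11.49, 11.45 and 11.46 log2 on days 2, 4, 7 and 14 of heme. In the control pools they averaged 11.42 to 11.53. Array medians of the 9 pools lay between 5.8950 and 5.9632 log2. The heme pool of day 14 stood apart from the others, with the lowest median and the lowest upper quartile (7.6732 log2, against 7.7446 to 7.7939 in the other arrays). In that pool the dimmest genes read high and the bright ones low. With genes split into 3 equal bands by mean level, its median difference from the mean of the 3 earlier heme days was 0.112 log2 in the lowest band, -0.036 in the middle one and -0.055 in the highest, against 0.000, 0.010 and 0.005 for the control pool of day 14. Both day 2 pools also stood apart, by genes of the exocrine pancreas, whose 11 members averaged 9.49 log2 in the heme pool and 8.89 in the control pool of that day and between 5.36 and 5.50 in the later pools.

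No gene reached the threshold in the test of late against early that used the 4 heme pools alone. In limma, a linear model with moderated errors, 0 of 14953 genes were called (0.0%) at a Benjamini-Hochberg adjusted p under 0.05. The smallest adjusted p was 0.373, and 1730 genes (11.6%) had an unadjusted p under 0.05 (5.06% higher and 6.51% lower), against 572 (3.83%) for the same contrast in the control pools. With 2 pools against 2, an exact permutation test of a single gene cannot go below p = 0.333. When the spread was estimated from all 8 pools of days 2 to 14, limma called 58 genes (0.388%), of which 26 were higher (0.174%) and 32 lower (0.214%) in the late heme pools. The same fit called 0 genes between late and early control pools. Without any one of the 7 pools other than heme day 7, or without both day 2 pools, the count was 0. Without the heme pool of day 7 it was 1295 (350 higher and 945 lower), with all 58 among them. All 58 kept their direction in these fits, which was fixed in advance and is no support. Each had both late heme pools on the same side of both early ones. Control pools do not enter the difference itself. The adjusted p-values quoted below are from the fit over all 8 pools and carry this limit. The test of the difference itself, late minus early in heme against late minus early in control, called 0 genes in limma (smallest adjusted p 0.304), with 990 (6.62%) at an unadjusted p under 0.05. No gene is therefore shown to follow a course particular to heme. Control values are given beside heme values for many of the genes and lists below. Where they are not given, the heme values alone do not set heme apart from time.

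By size alone, 169 genes (1.13%) lay at least 0.5 log2 higher in the mean of the late heme pools with both late pools above both early ones, and 129 (0.863%) lay at least 0.5 lower with both below. In control the numbers were 92 (0.615%) and 11 (0.0736%), and 19 genes were higher and 3 lower in both diets. At 1.0 log2 the order for higher genes turned, with 15 in heme and 19 in control, while 17 were lower in heme and 6 in control. Of all genes tested, 18.8% had both late heme pools above both early ones and 24.6% had both below, which is the background for the counts of list members that follow. In control these shares were 16.9% and 10.9%.

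The courses were sorted by the order of the 4 heme values, with no test. In 23 genes (0.154%) each of the 3 steps between neighbouring days was at least 0.2 log2 up, and in another 23 (0.154%) each was at least 0.2 down. A plateau by day 7, meaning at least 0.5 log2 beyond both early days and a day 14 value within 0.2 of day 7, was met by 45 genes (0.301%) upward and 13 (0.0869%) downward. A value that left the others only on day 14, by at least 0.5 log2 from days that lay within 0.3 of each other, was met by 40 genes (0.268%) upward and 71 (0.475%) downward. The same definitions over the control pools gave 2 genes with 3 steps up (0.0134%), 0 with 3 steps down, upward plateaus in 4 (0.0268%) and downward ones in 2 (0.0134%), and day 14 alone in 8 upward (0.0535%) and 0 downward. Day 7 alone was high in 18 genes of heme (0.12%) and 16 of control (0.107%), and low in 3 (0.0201%) and 1 (0.00669%). Day 2 alone was high in 11 genes of heme (0.0736%) and 16 of control (0.107%), and low in 20 (0.134%) and 40 (0.268%). No gene of the first 6 classes was in the same class in control. Those control classes held 0 to 8 genes each, too few for the lack of overlap to mean anything. These counts move with the thresholds, as given in the closing section.

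**Figure D1:**
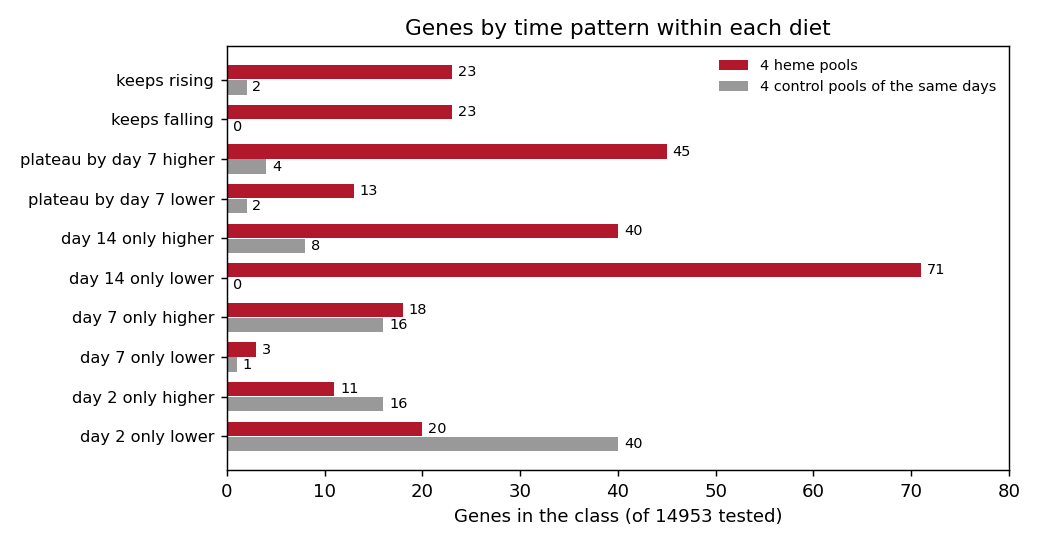
Number of genes in each time pattern (x axis, genes of 14953 tested) over the 4 heme pools (red) and the 4 control pools of the same days (grey), with the count printed at each bar. Courses of 3 steps, plateaus and day 14 courses held 13 to 71 genes in heme against 0 to 8 in control. Day 7 alone held 18 and 3 genes against 16 and 1, and day 2 alone held 11 and 20 against 16 and 40.

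Promoters of 4 genes are printed here because each stands for a pattern described below: Slc30a10 for a plateau downward, Me1 for 3 steps up among Nrf2 targets, Plk1 for mitosis and Idi1 for cholesterol synthesis. They are from RefSeq on build GRCm38.p6, each 300 bases that end 50 bases past the start, read 5′ to 3′ on the gene's strand. Capitals mark matches, on either strand, to the antioxidant response element (TGACNNNGC) and the cell cycle homology region (TTTGAA). The latter is a site in promoters of mitotic genes. Matches to the CCAAT box (CCAAT, or ATTGG on the other strand) are also in capitals. Slc30a10 lies at chr1:185454598-185454897 on the plus strand, the first of 2 Me1 promoters in the table at chr9:86695865-86696164 on the minus strand, Plk1 at chr7:122159185-122159484 on the plus strand and Idi1 at chr13:8885356-8885655 on the plus strand.
Slc30a10: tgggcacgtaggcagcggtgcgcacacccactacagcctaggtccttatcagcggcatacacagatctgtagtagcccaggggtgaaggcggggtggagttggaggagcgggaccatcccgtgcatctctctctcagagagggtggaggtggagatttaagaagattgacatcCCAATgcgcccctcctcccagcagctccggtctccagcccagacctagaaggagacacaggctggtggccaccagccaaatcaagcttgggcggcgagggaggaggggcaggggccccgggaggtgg
Me1: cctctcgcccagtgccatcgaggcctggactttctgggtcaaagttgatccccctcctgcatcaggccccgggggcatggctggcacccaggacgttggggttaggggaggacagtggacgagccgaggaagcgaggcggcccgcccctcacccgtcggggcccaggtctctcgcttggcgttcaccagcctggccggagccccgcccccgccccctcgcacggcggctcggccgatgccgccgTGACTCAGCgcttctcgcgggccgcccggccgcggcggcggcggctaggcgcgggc
Plk1: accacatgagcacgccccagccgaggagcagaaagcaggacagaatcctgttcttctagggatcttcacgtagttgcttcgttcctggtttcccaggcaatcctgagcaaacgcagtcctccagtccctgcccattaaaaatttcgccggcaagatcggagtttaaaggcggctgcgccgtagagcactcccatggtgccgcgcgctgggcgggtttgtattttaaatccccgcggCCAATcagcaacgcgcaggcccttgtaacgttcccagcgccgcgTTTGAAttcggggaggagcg
Idi1: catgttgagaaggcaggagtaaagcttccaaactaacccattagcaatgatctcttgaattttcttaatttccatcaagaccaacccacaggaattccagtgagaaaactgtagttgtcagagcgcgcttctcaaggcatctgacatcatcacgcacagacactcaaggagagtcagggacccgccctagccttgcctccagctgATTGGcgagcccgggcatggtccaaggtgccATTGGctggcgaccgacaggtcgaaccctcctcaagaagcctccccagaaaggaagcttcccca
A match is a string of letters and shows no binding.

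Slc30a10, a manganese exporter of the cell surface, had the lowest late-minus-early difference among genes outside the exocrine pancreas. It stood at 8.68, 8.29, 6.97 and 7.01 log2 on days 2, 4, 7 and 14 of heme, and at 8.96, 8.87, 9.08 and 8.76 in control. Both late heme pools lay well below all other pools, and most of the difference came between days 4 and 7 (steps of -0.38, -1.32 and 0.04). It was -1.50 log2 (SE 0.14, limma adjusted p = 0.0387), against 0.01 in control. Slc46a1, which takes up folate and at low affinity heme, took the same course, from 8.23 and 8.03 to 7.12 and 7.04 log2 (-1.05, adjusted p = 0.0387), with control pools between 8.20 and 8.43. Of the 27 tested genes of heme and iron handling it was the single one called. The iron importer Slc11a2 had a late-minus-early difference of -0.25 log2 and the iron exporter Slc40a1 one of -0.18, neither called, and the median of the list was 0.00.

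Other plateaus downward were Cyp2f2, a cytochrome P450, at 8.15, 7.91, 7.07 and 6.93 log2 (adjusted p = 0.0387), and Abcg5, a subunit of the exporter of plant sterols, at 7.19, 6.75, 6.21 and 6.10 (adjusted p = 0.113). Sstr1, a somatostatin receptor, stood at 7.59, 7.27, 6.73 and 6.55 (adjusted p = 0.0486). In each of these the late heme pools did not overlap the early ones or the control pools of the same days. Of the 13 genes with this course 7 were among the 58 calls (0.388% of all genes). Class and test rest on the same heme values, so such calls follow largely from the definition. In control 11 of the 13 had a late-minus-early difference above 0, as 54.8% of all genes did, with a median of 0.06 log2.

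Among the 23 genes with 3 steps down were several transport genes, though of the 23 tested colonocyte genes only Scnn1g took this course and the water channel Aqp4 took 3 steps up (9.64, 9.85, 10.15 and 10.69 log2). Slc10a2, the sodium-driven importer of bile acids, stood at 10.31, 10.11, 9.55 and 9.24 log2 in heme (difference -0.81, adjusted p = 0.0407) and between 10.49 and 10.65 in control. Ppargc1a, a coactivator of mitochondrial genes, stood at 9.01, 8.73, 8.43 and 7.91 log2, with control pools between 8.95 and 9.16. Both reached their lowest value on day 14, and for both the day 14 value lay below every control pool. Others were Trpv6, the calcium channel (7.14, 6.47, 6.22 and 5.76), S100g, which carries calcium through the cell (9.95, 9.74, 9.52 and 9.25), and Scnn1g, a subunit of the sodium channel (8.35, 8.09, 7.87 and 7.27). Fxyd4, which tunes the sodium pump, had the widest range after Try10 and Gm10561 by the named-gene rule, from 9.00 on day 2 to 7.06 on day 14, with control between 8.36 and 8.67. Edn1, the vasoactive peptide endothelin, went from 8.77 to 7.25, with control at 8.87 to 8.40. Of the 23 genes 1 was called, against 0.388% of all genes. Try10, a trypsinogen at 9.53 log2 on day 2 and 4.26, 4.01 and 3.79 later, and Cela1, an elastase (9.61, 8.72, 8.27 and 8.00), are enzymes of the pancreas. Try10 had the same drop after day 2 in control (8.07, then 4.16, 4.04 and 4.16). Cela1 stood at 9.45, 8.94, 8.90 and 8.90 in control. Its heme values from day 4 on lay below the control values of the same days.

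Several lower genes met no class, since days 2 and 4 were too close for 3 steps down and days 7 and 14 too far apart, or day 7 too near day 4, for a plateau. Slc13a1, a sulfate transporter, stood at 9.32, 9.16, 8.29 and 7.70 log2 against 9.92 to 10.04 in control (difference -1.24, adjusted p = 0.0460). Sis, the brush border sucrase-isomaltase, stood at 6.64, 6.49, 5.48 and 5.04 against 6.92 to 7.52 in control (-1.30, adjusted p = 0.0569). Every late value of both genes lay below every early one, and all heme values lay below the control values. Atp12a, a proton and potassium pump of colon cells, was also lower late than early (10.99, 10.92, 10.40 and 10.13, adjusted p = 0.0405). Its control pools lay between 10.78 and 10.89, so its early heme values lay above control. Bmp2, a growth-restraining signal of surface cells, was lower late as well (8.74, 8.58, 8.09 and 7.98, adjusted p = 0.0486). Its control pools lay between 8.65 and 8.85, a range that held the heme value of day 2. Of 23 tested colonocyte genes 1 was called higher, the water channel Aqp8 (12.06, 11.97, 12.36 and 12.43, adjusted p = 0.0486), and 1 lower, Atp12a, and the list median was -0.06 (-0.01 without the heme pool of day 14). Of 12 brush border genes 7 had both late pools below both early ones, with Mep1a, the meprin protease, at 11.15, 11.07, 10.63 and 10.25 (adjusted p = 0.0626), whereas Alpi, an alkaline phosphatase, took 3 steps up (8.42, 8.68, 9.18 and 9.44, adjusted p = 0.0695).

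**Figure D2:**
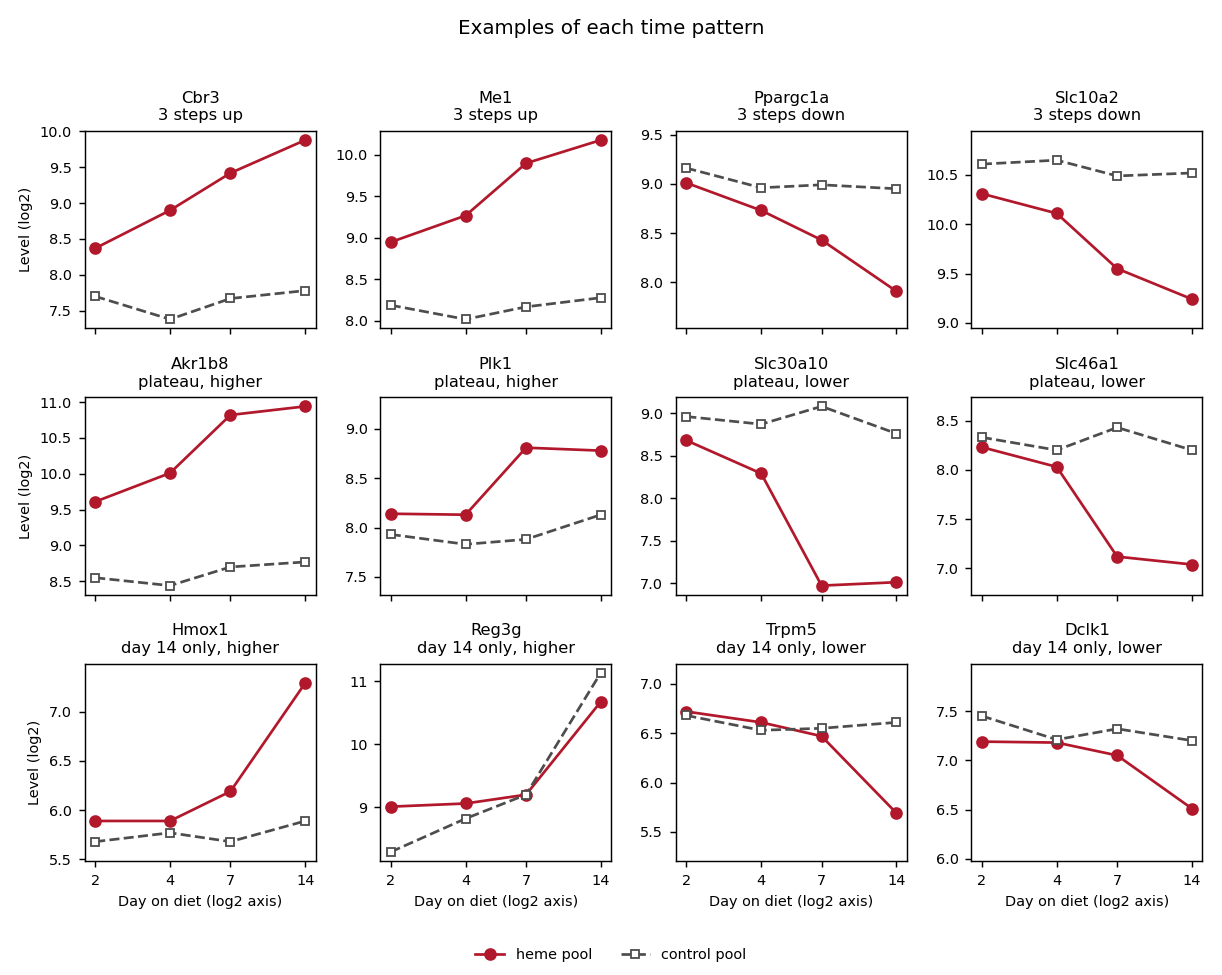
Levels of 12 genes (y axis, log2) by day on diet (x axis, log2-spaced), 1 point per pool, for heme (red circles) and control (grey squares), with the pattern of the heme pools above each panel. The first row shows 3 steps up or down, the second a plateau reached by day 7 and the last a departure on day 14. Reg3g is high on day 14 in both diets.

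Some genes of defence against oxidants and aldehydes stood higher in the late heme pools, by different courses. Akr1b8, an aldo-keto reductase that clears aldehydes, stood at 9.61, 10.01, 10.82 and 10.94 log2, a plateau (difference 1.07, SE 0.12, limma adjusted p = 0.0387), with control between 8.44 and 8.77. Me1, the malic enzyme that makes NADPH, took 3 steps up, at 8.95, 9.27, 9.90 and 10.18 (0.93, adjusted p = 0.0460), with control between 8.02 and 8.28. Both were above every control pool from day 2, and their late values lay above the early ones. Cbr3, a carbonyl reductase, also took 3 steps, at 8.37, 8.90, 9.42 and 9.88 (1.01, adjusted p = 0.0991), as did the steroid-reducing Akr1c18 (8.40, 8.93, 9.44 and 9.81). Gsta3, a glutathione transferase, was close to control on days 2 and 4 (6.79 and 6.60, with control at 6.62 to 6.83) and above it on days 7 and 14 (7.56 and 7.93, adjusted p = 0.0387). Nqo1, a quinone reductase, rose by less, at 8.60, 8.74, 9.14 and 9.21 (0.50, adjusted p = 0.0460), with control between 8.28 and 8.39.

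Hmox1, the heme oxygenase that opens the heme ring, met the class of day 14 alone at its limit, since day 7 already lay 0.3 log2 above day 4. Against the control pool of the same day it was 0.21, 0.12, 0.51 and 1.41 log2 higher. It stood at 5.89, 5.89, 6.19 and 7.29 log2, and the control pools lay between 5.68 and 5.89. The late-minus-early difference was 0.85 log2 and rests mainly on 1 pool, so it did not pass (adjusted p = 0.239). Over the Nrf2 list, 5 of 30 tested genes were called higher and 0 lower, and 22 had both late pools above both early ones (background 18.8%). The median difference was 0.34 log2 in heme and 0.04 in control, and the median steps were 0.06, 0.24 and 0.12. Of the 26 list genes with a promoter in the RefSeq table, 10 (38.5%) held TGACNNNGC in at least 1 promoter, against 14.0% of all genes there. Me1 held it in the first of its 2 promoters and not in the second. Of the cholesterol synthesis genes, 4 of 13 (30.8%) held it. Over 16 other antioxidant enzymes, such as catalase and the superoxide dismutases, 0 were called in limma, 8 had both late pools above both early ones, 0 differed by 0.5 log2 or more, and the median was 0.10 in heme and 0.05 in control.

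Genes of fatty acid use stood above the control pools from day 2 and levelled after day 7. Fabp1, which carries fatty acids through the cell, stood at 6.96, 7.84, 9.65 and 9.41 log2 in heme and at 5.43, 4.94, 4.78 and 4.50 in control. All heme pools lay above all control pools, and the late heme pools lay above the early ones. Its late-minus-early difference, 2.13 log2 (SE 0.28, a 4.38-fold ratio), was the highest of all genes tested that had separate early and late pools (adjusted p = 0.0460), and it missed the plateau class since day 14 lay -0.24 from day 7. Cyp4a10, a fatty acid hydroxylase, was a plateau at 5.27, 6.18, 6.88 and 6.78 (adjusted p = 0.174), with control at 3.99 to 4.69, near or under the filter on low values of 4.7158. Acot2, a mitochondrial thioesterase, stood at 8.65, 9.05, 9.63 and 9.54 (adjusted p = 0.0569), and Pdk4, which shuts off pyruvate dehydrogenase, at 9.44, 9.62, 10.12 and 10.03 (adjusted p = 0.320). Of 28 tested genes of the list 1 was called, and 20 had both late pools above both early ones. The median steps were 0.13, 0.19 and -0.08 log2, and against the control pool of the same day the list median was 0.28, 0.44, 0.55 and 0.53.

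For mitotic genes nearly all of the difference came between days 4 and 7. The median step over 26 tested genes was -0.07 log2 from day 2 to 4, 0.55 from day 4 to 7 and -0.15 from day 7 to 14. Against the control pool of the same day the median was 0.25, 0.31, 0.82 and 0.44. Plk1, a kinase that drives entry into mitosis, stood at 8.14, 8.13, 8.81 and 8.78 log2 (difference 0.66, SE 0.08, adjusted p = 0.0407), with control at 7.83 to 8.13. Both late heme pools lay above all other pools. Ccna2, cyclin A2, stood at 8.80, 8.88, 9.46 and 9.45 (adjusted p = 0.0645), Birc5, survivin, at 6.72, 6.78, 7.31 and 7.34 (adjusted p = 0.117), and the proliferation marker Mki67 at 9.10, 8.98, 9.56 and 9.37 (adjusted p = 0.149). In 25 of the 26 both late pools lay above both early ones (background 18.8%), with a median difference of 0.44 log2 in heme and 0.09 in control, and 1 of 26 was called. The median was 0.34 without the heme pool of day 7 and 0.52 without that of day 14. Tacc3 and Spag5, which organise the spindle and were not on the list, were plateaus among the 58 calls (0.53 and 0.54 log2, adjusted p = 0.0460 and 0.0464). Both hold the same deposited value on days 2 and 4, so their spread may be understated.

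Genes of DNA replication had smaller differences, and the gap between the lists was not tested. In 21 of 27 both late pools lay above both early ones, the median difference was 0.23 log2 against 0.13 in control, and 0 were called in limma. Subunits of the replicative helicase had late-minus-early differences from 0.02 (Mcm2) to 0.37 (Mcm3). Over the 22 mitosis genes with a promoter in the table, 16 (72.7%) held TTTGAA, against 20.2% of all genes and 3 of 23 replication genes (13.0%). CCAAT was held by 17 of the mitosis genes (77.3%), against 41.1% of all genes and 15 of the 23 replication genes (65.2%). In the Plk1 promoter printed above, both matches lie close to the start of the gene.

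Cholesterol synthesis genes stood higher on both late days. The median difference over 16 tested genes was 0.46 log2 in heme and 0.12 in control, and the median steps were 0.05, 0.33 and 0.25. In 15 of 16 both late pools lay above both early ones (the exception being Dhcr7 at -0.03), 7 differed by at least 0.5, and 0 were called in limma. Idi1, which isomerises isopentenyl diphosphate, stood at 9.33, 9.39, 9.94 and 10.13 log2 (0.68, adjusted p = 0.102), and Fdps, farnesyl diphosphate synthase, at 8.77, 8.73, 9.14 and 9.63 (0.64, adjusted p = 0.152). Control day 14 was also the highest of the control days for both, at 9.71 and 8.98. The list median was 0.32 without the heme pool of day 14. All 13 genes with a promoter in the table held CCAAT (100.0%), and in Idi1 it occurs at 2 places. Among lipogenic genes 8 of 12 had both late pools above both early ones. Scd2, a fatty acid desaturase, was called (11.24, 11.29, 11.70 and 11.83, adjusted p = 0.0460). Its control pools lay between 11.32 and 11.48, above its early heme values and below the late ones.

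**Figure D3:**
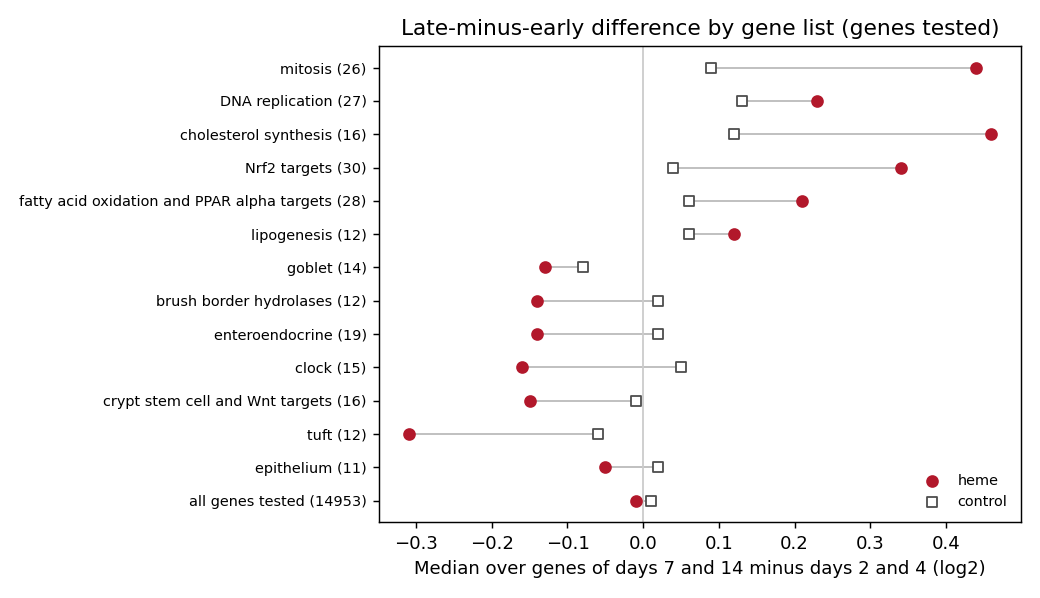
Median late-minus-early difference (x axis, log2) over the tested genes of each list (number in brackets) in heme (red circles) and control (grey squares). Of the lists drawn, mitosis (0.44), cholesterol synthesis (0.46) and Nrf2 targets (0.34) lie farthest to the right in heme and tuft cell genes (-0.31) farthest to the left, while all genes lie at -0.01. Lists of immune and other cells are not drawn.

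Other large differences upward were those of Capg, Vsig1, Slpi, Clca4b and Ly6m. Capg, which caps actin filaments, stood at 7.87, 7.69, 8.93 and 9.36 log2 (1.37, SE 0.15, adjusted p = 0.0387), and Vsig1, an adhesion protein of stomach epithelium, at 6.53, 6.50, 7.66 and 8.07 (1.35, adjusted p = 0.0387). Control pools lay between 7.22 and 7.67 and between 6.51 and 6.89, so the early heme pools lay close to the control range and the late ones above it. Slpi, a secreted inhibitor of proteases, took the same course at 5.64, 5.62, 6.53 and 7.29 (1.28, adjusted p = 0.0645), with control between 5.53 and 5.77. Clca4b, of the family of calcium-activated chloride channel regulators, stood at 7.66, 7.61, 9.13 and 10.28, but its control pools ranged from 6.97 to 8.39 (adjusted p = 0.131). Ly6m stood at 8.17, 8.09, 9.28 and 9.51 (adjusted p = 0.0460), with control between 7.39 and 8.13.

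**Figure D4:**
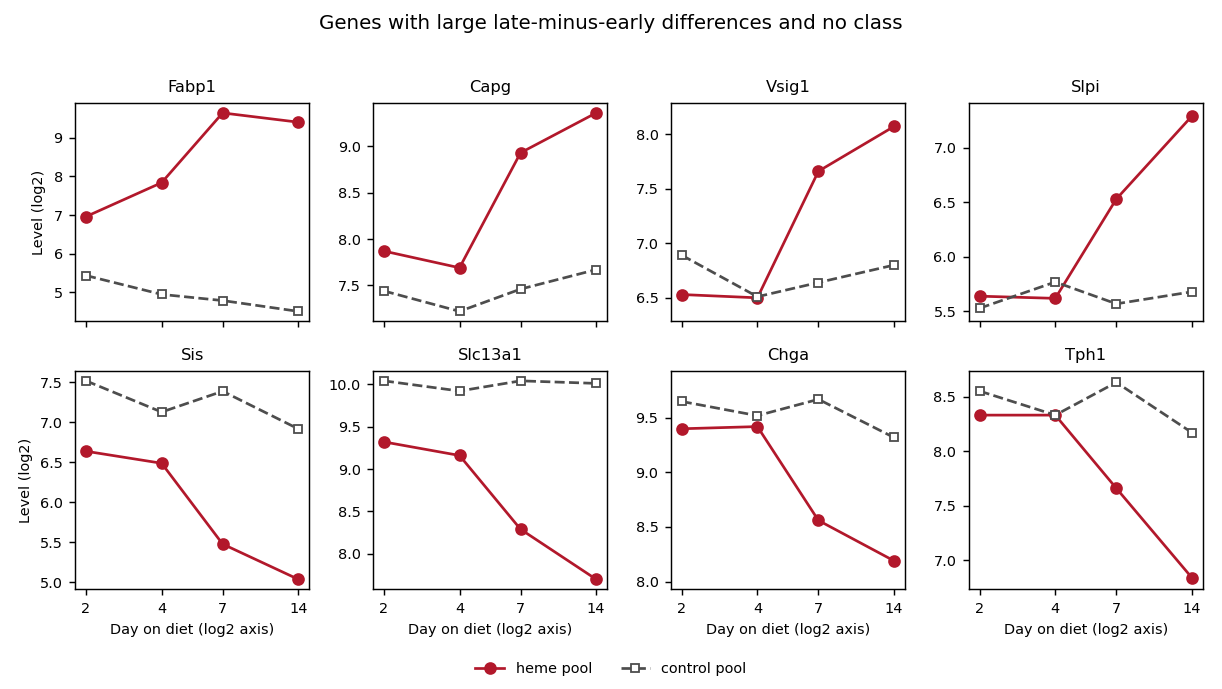
Levels of 8 genes with large late-minus-early differences that met no class (y axis, log2) by day on diet (x axis, log2-spaced), 1 point per pool, for heme (red circles) and control (grey squares). In Vsig1 and Slpi the heme pools of days 2 and 4 lie near control and those of days 7 and 14 above it, and in Sis and Slc13a1 all 4 heme pools lie below control.

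Some genes of rare epithelial cells stood lower on the late heme days. In bulk RNA, fewer cells of a type and less RNA per cell cannot be told apart. Chga, the granule protein of enteroendocrine cells, stood at 9.40, 9.42, 8.56 and 8.19 log2 (difference -1.04, SE 0.14, limma adjusted p = 0.0464), with control at 9.32 to 9.67. Tph1, which makes serotonin, stood at 8.33, 8.33, 7.66 and 6.84 (-1.07, adjusted p = 0.124). Both hormone-cell genes had late heme pools below every other pool. The peptide hormone genes Gcg and Sst had differences of -0.04 and -0.06, and over 19 tested enteroendocrine genes 1 was called, 8 had both late pools below both early ones (background 24.6%) and the median was -0.14, or -0.06 without the heme pool of day 14.

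Some tuft cell genes kept near their early level until day 7. Trpm5, the taste-type cation channel, stood at 6.72, 6.61, 6.47 and 5.69 log2, Dclk1, a kinase used as a tuft cell marker, at 7.19, 7.18, 7.05 and 6.51, and Gnat3, the gustducin subunit, at 5.08, 5.18, 5.04 and 4.45. All 3 left their level on day 14 alone, and their control pools of day 14 (6.61, 7.20 and 5.26) did not. Over 12 tested tuft genes 0 were called in limma, 7 had both late pools below both early ones, and the median was -0.31 log2 in heme and -0.06 in control. It was -0.15 without the heme pool of day 14. Of 15 clock genes 10 had both late pools below, with a median of -0.16 (-0.10 without the heme pool of day 14), and Nr1d1, the repressor Rev-erb alpha, was called (9.84, 9.70, 9.40 and 9.37, adjusted p = 0.0464).

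The remaining day 14 courses were mostly small and dim. Of the 40 genes upward, 33 lay in the band of lowest mean level, in which the day 14 heme array read 0.112 log2 high. Their medians over the 4 heme days were 5.40, 5.33, 5.39 and 5.92 log2. Hmox1 stood out by size among them, with Reg3g, an antibacterial lectin, at 9.01, 9.06, 9.20 and 10.68. Reg3g was as high on day 14 of control (11.14, after 8.29, 8.82 and 9.20). Of the 71 genes downward, 31 lay in the lowest band, 37 in the middle one and 3 in the highest. Symbols of zinc finger genes (those that start with Zfp and a digit, Zscan, Zkscan or Zbtb) made up 16 of these 71, and 356 (2.38%) of all genes tested. Zfp975 stood at 5.65, 5.55, 5.44 and 4.48 log2, and Zfp595 at 6.16, 5.99, 5.86 and 5.08. With each array centred on its median the counts became 101 upward and 40 downward. How much the array itself adds to these courses was not tested.

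Fibroblast and macrophage genes had late-minus-early medians above 0 in both diets, at 0.57 and 0.37 log2 in heme and 0.42 and 0.24 in control, while T and NK cell genes had medians of -0.13 and -0.02. Of the 45 genes with an upward plateau, 3 were on a list of other cells, as were 126 of the 14953 genes tested, and 42 also had a late-minus-early difference above 0 in control, as 54.8% of all genes did. Lyz2, a lysozyme of macrophages, stood at 8.09, 8.55, 9.12 and 9.28 log2 in heme and 8.28, 9.15, 8.82 and 9.32 in control, and Col1a2, a collagen chain of fibroblasts, at 7.52, 7.94, 8.50 and 8.45 in heme and 7.78, 8.40, 8.20 and 8.81 in control. For both the heme and control ranges overlap. The 14 fibroblast genes averaged 7.33, 7.73, 8.22 and 8.00 log2 in heme and 7.46, 8.24, 8.15 and 8.56 in control, and the 15 macrophage genes 6.08, 6.29, 6.53 and 6.58 against 6.16, 6.57, 6.41 and 6.77. Smooth muscle genes peaked on day 7 in both diets (8.28 and 8.84, with 6.83 to 7.28 and 6.87 to 7.84 on other days). Their part in the courses of single genes was not tested. When heme minus control of the same day was sorted in place of the heme values, 19 genes had an upward plateau, 4 of them among the 45. A segment of the antibody kappa light chain was called (5.67, 6.04, 7.40 and 7.49, adjusted p = 0.0387), with control between 6.39 and 7.05.

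**Figure D5:**
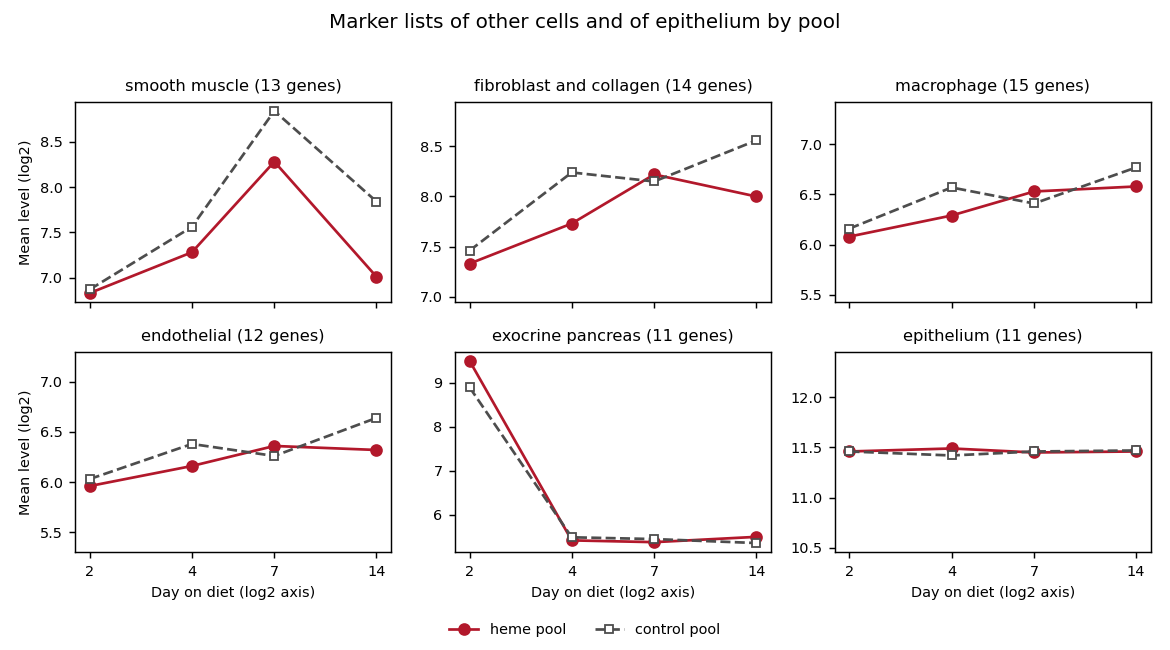
Mean level of marker lists (y axis, log2) by day on diet (x axis, log2-spaced), 1 point per pool, for heme (red circles) and control (grey squares). Smooth muscle peaks on day 7 and pancreas on day 2 in both diets, and epithelial markers stay between 11.42 and 11.49 on these days.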

How the data were processed

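Colon scrapings were pooled by diet and day, with 1 array per pool. The authors deposited log2 expression values, 1 per probeset, which the submitters' processing notes ascribe to RMA; its version is not given here. RMA normalises arrays together, so a pool that differs widely can shift the others, and 3102 of the genes tested hold equal values, to all digits deposited, in 2 or more heme pools, which may understate their spread. Arrays have no read depth, and their number limits precision.

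Of 35556 probesets, 21789 had 1 symbol, 1621 several and 12146 none, and only the first were used. The brightest probeset stood for each of 19938 genes (999 had several). The 14953 genes with a mean at or above the 25th percentile (4.7158 log2) were tested with limma 3.58.1 in R 4.3.3 (lmFit, eBayes with an intensity trend) and Benjamini-Hochberg adjustment. Tables used Python 3.11.15 and pandas 2.3.3, figures matplotlib 3.10.9. Late minus early was fitted on the 4 heme pools (2 residual degrees of freedom), on the 4 control pools and as a difference between diets. A slope on log2(day) over the 4 heme pools called 0 genes in limma, and 2899 (19.4%) had unadjusted p-values under 0.05. The fits were checked on simulated data.

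Named genes were the 12 highest and 12 lowest late-minus-early differences with separate early and late pools, the 6 widest of each class, and members of 47 textbook gene lists, of whose 741 genes 687 were matched and 645 tested. Genes named outside this rule are other class members or come from the 58 calls with the shared spread, and were chosen after their values were seen. The members, lists and alternatives were chosen with earlier results of these data known. Alternatives were the filter, trend, probeset rule, array centring, thresholds, leaving out pools, the day as a block and a spread shared by 8 pools.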

Additional observations from a re-analysis of the deposited data

Results flagged for a closer look

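Probesets without a single gene symbol were not used in any comparison above. Of the 8727 that passed the same filter on low values, 77 differed by at least 1.0 log2 between the late and early heme pools with no overlap, against 23 in the control pools. They carry no gene name here and were not followed further.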

How the results depend on the processing

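With 2 pools a side and no second pool of any day, power is low, and the calls of single genes hold only for the settings named. In limma the contrast on the 4 heme pools called 0 genes under every filter, trend, probeset and centring alternative and without each heme pool (range 0 to 0). Sharing the spread over 8 pools gave 58, without single pools 0 to 1295 (the latter without heme day 7), and with arrays centred on the median 148 (73 higher, 75 lower). Leaving out pools and centring in this fit were added after the data were seen. The slope on log2 day called 22 genes (13 higher, 9 lower) with arrays centred and 0 otherwise. The difference between diets called 0 genes, also with the replicate block (day), where 1162 had an unadjusted p under 0.05 and the smallest adjusted p was 0.0674. The labels share the day, not the animals, so the pools were not taken as paired. Same-day deviations correlated with r = 0.658, 0, 0.3 and 0.204 on days 2, 4, 7 and 14. Between unlike days r ranged from -0.475 to 0.396. Whether the diets share an effect of the day was not tested.

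Class counts moved with the thresholds. Stricter ones left 9 and 2 genes with 3 steps up and down, 2 and 4 with a plateau up and down, and 1 and 5 with day 14 alone up and down, while looser ones gave 108, 133, 178, 65, 350 and 342 in that order. Heme minus control of the same day gave 12 with 3 steps up, plateaus of 19 up and 28 down, and 101 with day 14 alone up. With no filter day 14 alone up held 77 genes, and with arrays centred 101 up and 40 down. The cause was not tested.

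Some single genes turned sign when 1 heme pool was left out. The difference of Synpo2 ranged from -0.10 (without day 7, which equals day 14 against days 2 and 4) to 1.10, of Myom1 from -0.07 to 0.79 and of Synm from -0.13 to 0.72 in the same way. That of Mir679 ranged from -0.10 (without day 14) to 0.65. The pool of day 2 turned Cel (-4.56 to 0.20), Rnase1 (-3.78 to 0.19), Frmd6 (-0.12 to 0.67) and Glipr1 (-0.04 to 0.69). The smooth muscle list median became -0.10 without heme day 7, from 0.66, and the pancreas list median 0.04 without heme day 2, from -2.18.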

Other observations

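Metallothionein and heat shock genes did not share a course. Over the 13 tested the median late-minus-early difference was -0.01 log2 in heme, 4 had both late pools above both early ones and 4 had both below. Hsph1, a chaperone of the Hsp110 family, stood at 10.01, 9.83, 9.16 and 9.86 log2 on days 2, 4, 7 and 14 of heme, and its control pools lay between 9.63 and 9.87. The inducible chaperone Hspa1a stood at 8.69, 8.49, 7.64 and 7.99 log2 in heme and between 7.67 and 8.25 in control. Day 7 was the lowest heme value of both, Hspa1a was still low on day 14, and neither late-minus-early difference passed (limma adjusted p = 0.361 and 0.124 in the fit over 8 pools). Mt2, a metallothionein that binds zinc and copper, reached its later level by day 4. It stood at 10.86, 11.42, 11.42 and 11.46 log2 in heme, and the control pools lay between 10.13 and 10.98.

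Genes of the MHC class II complex had both late heme pools above both early ones in 5 of 6, with a median difference of 0.56 log2 in heme and 0.20 in control. Cd74, the invariant chain, stood at 7.73, 8.22, 8.59 and 8.47 log2 in heme and at 8.37, 8.73, 8.39 and 9.04 in control, so heme was above control on day 7 alone. The macrophage list had a median difference of 0.37 in heme and 0.24 in control, and its part was not tested. The class II median was 0.32 without the heme pool of day 2 and 0.81 without that of day 4.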
